A study of Mus musculus with 2 samples.

Results

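Open promoters without any footprint are stretches of accessible chromatin near gene starts in which no protected site was called. DNase-seq, a method that maps accessible DNA by where the enzyme DNase I cuts it, had been carried out on spleens of 2 male B6CASTF1/J mice aged 4 days, F1 hybrids between C57BL/6J and CAST/EiJ. The mice form 1 group of biological replicates with no treatment, so no conditions could be compared, and the labels give both mice the same donor identifier although they number the animals separately. Whole tissue was used, so fewer cells of a type and less open chromatin per cell cannot be told apart. Peaks of the longer list of each library that overlapped by at least 1 bp were merged, which gave 60596 regions with peaks of both libraries. Of these, 20882 had a midpoint within 1 kb of a start site of a protein-coding transcript in the basic set of GENCODE vM21 and are called open promoters. Among them, 1320 regions (6.32%), assigned to 1270 genes, touched no footprint of either library. These were chosen by the peaks and footprints called in both libraries and by distance to a start site. The other 19562 touched at least 1 footprint and are called footprinted promoters.

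A promoter is the DNA around the start of a gene where transcription is begun, and in accessible chromatin its nucleosomes are removed or loosened. A bound transcription factor can shield a few bases from DNase I, which leaves a footprint, a short dip in cutting inside an accessible stretch. Many mammalian promoters lie in CpG islands, where the dinucleotide CpG has been kept at a density near that predicted from base composition, and their accessible zone can extend into the first exon and intron. The spleen of a newborn mouse still forms blood, and the defining markers of that state could be checked here. Open promoters were found at 5 of 5 erythroid markers (Gata1, Klf1, Epb42, Tal1 and Slc4a1), at 4 of 4 B cell markers, at 2 of 3 neutrophil markers and at 1 of 3 T cell markers. None of the 3 macrophage markers had one, nor did any of the 4 hepatocyte markers, while 1 of 3 neuronal markers did (Syn1). No region at any of these markers lacked footprints (14 erythroid, 5 B cell, 5 neutrophil, 4 T cell and 1 neuronal region). With 6.32% of all open promoters unfootprinted, few or none would be met among so few regions.

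The 3 unfootprinted promoters with the highest signal, ranked by the lower of the libraries' signals relative to the library median, are shown first, because footprinted promoters of the same strength can be set beside them. Their sequences are from the RefSeq genome of GRCm38.p6, on the strand of the gene, with every CpG in capitals. The regions are those of Coro1c, an actin-binding coronin (chr5:113908041-113908260, minus strand), Zfyve21, a FYVE zinc finger protein (chr12:111814361-111814600, plus strand), and Zcchc7, a zinc knuckle protein of nuclear RNA decay (chr4:44756141-44756320, plus strand).
Coro1c: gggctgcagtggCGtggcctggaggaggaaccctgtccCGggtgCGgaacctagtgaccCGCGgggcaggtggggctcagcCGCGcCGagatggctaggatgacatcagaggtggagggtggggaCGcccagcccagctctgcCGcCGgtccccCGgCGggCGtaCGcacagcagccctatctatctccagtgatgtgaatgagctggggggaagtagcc
Zfyve21: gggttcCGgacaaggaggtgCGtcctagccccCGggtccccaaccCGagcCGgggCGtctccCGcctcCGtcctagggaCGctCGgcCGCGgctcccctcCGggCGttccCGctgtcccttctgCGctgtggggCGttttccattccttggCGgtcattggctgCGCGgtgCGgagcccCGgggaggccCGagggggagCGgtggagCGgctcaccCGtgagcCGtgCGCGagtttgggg
Zcchc7: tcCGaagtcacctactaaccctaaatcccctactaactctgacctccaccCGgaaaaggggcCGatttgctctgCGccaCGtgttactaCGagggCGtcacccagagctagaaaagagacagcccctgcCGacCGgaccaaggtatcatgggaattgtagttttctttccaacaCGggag

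For contrast, the footprinted promoters closest in signal to the strongest of these regions are printed with the bases under a footprint of either library in capitals. They belong to Mgea5, the enzyme that removes O-GlcNAc from proteins (chr19:45782621-45782900, minus strand), and Prcd, a photoreceptor disc protein (chr11:116657941-116658120, plus strand).
Mgea5: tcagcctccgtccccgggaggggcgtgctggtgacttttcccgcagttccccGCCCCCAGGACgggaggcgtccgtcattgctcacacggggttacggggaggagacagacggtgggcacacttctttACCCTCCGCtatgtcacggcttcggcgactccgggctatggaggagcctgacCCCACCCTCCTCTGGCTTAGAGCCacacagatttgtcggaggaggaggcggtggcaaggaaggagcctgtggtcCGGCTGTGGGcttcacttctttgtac
Prcd: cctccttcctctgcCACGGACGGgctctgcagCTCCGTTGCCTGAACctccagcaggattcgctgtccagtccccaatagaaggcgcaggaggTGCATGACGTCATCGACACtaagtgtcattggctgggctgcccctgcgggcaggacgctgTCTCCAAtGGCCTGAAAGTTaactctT

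The Coro1c region held 15 CpG in 220 bp and had a peak signal of 3.83 in replicate 1 and 3.02 in replicate 2, with 0 footprints in both. At Mgea5, the signal was 3.98 in replicate 1 and 2.90 in replicate 2, and the libraries placed 4 and 3 footprints in 280 bp. Signal is the authors' value for each peak, whose scale is not stated. It is compared within a library or, for bins and neighbours, as the geometric mean of the libraries. The Zfyve21 region, with 29 CpG in 240 bp, had signals of 3.67 in replicate 1 and 2.66 in replicate 2. Prcd, with signals of 3.41 in replicate 1 and 2.87 in replicate 2, held 4 and 6 footprints in 180 bp. Regions of nearly equal signal thus stood on both sides of the rule.

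Signal and footprints come from the same cuts, so the signal of the chosen regions is a description of the rule and not a finding. The unfootprinted promoters had a median signal of 0.933 in replicate 1 (range 0.0591 to 3.83) and 0.801 in replicate 2 (range 0.123 to 3.02). All footprinted promoters had medians of 3.07 in replicate 1 and 2.52 in replicate 2. The ratio of the medians was 0.304 in replicate 1 and 0.318 in replicate 2, or 0.311 ± 0.00977 (SD, n = 2 libraries). Among shared regions away from promoters, 759 of 39714 (1.91%) lacked footprints, and over all shared regions 2079 did (3.43%).

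The regions without a footprint were not the weakest open promoters. When all open promoters were ranked by signal and divided into 20 bins of equal number, 9.38% of the weakest bin lacked footprints. The share was highest, at 21.2%, in the sixth bin, which covers signals of 0.897 to 1.08. It was 1.53% in the tenth bin, 0.192% in the twelfth, and 0% in each of the 8 bins above it. None of the 8353 open promoters with a signal above 3.84 was without a footprint, and 8894 had a signal above that of the strongest unfootprinted region. Each library alone had its maximum above the weakest bin too, at 31.8% in replicate 1 (bin 5) and 27.4% in replicate 2 (bin 4). There the weakest bin stood closer to the maximum, at 29.2% in replicate 1 and 21.1% in replicate 2. In bin 2 the shares were lower, at 21.1% and 17.7%. The low share of the weakest bin thus belongs mainly to regions without a footprint in both libraries. A low signal and few cuts cannot be told apart in these lists, and read depth is unknown.

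**Figure D1:**
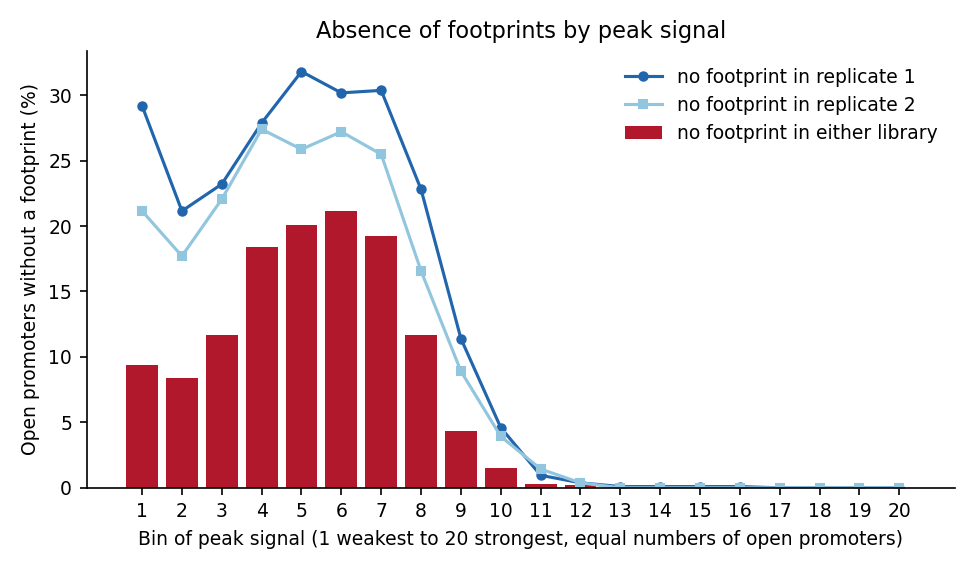
Percentage of open promoters without a footprint (vertical axis) in 20 bins of peak signal holding equal numbers of regions (horizontal axis, weakest on the left). Bars are regions without a footprint in either library and lines are each replicate alone; the bars peak at 21.2% in bin 6 and reach 0% from bin 13 on.

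Absence of a footprint in one library was shared by the other more often than at like signal. In replicate 1, 2446 open promoters had no footprint (11.7%), and in replicate 2, 2068 had none (9.9%). With the peaks as well as the footprints of 1 library alone, 4410 promoters (17.5%) had none in replicate 1 and 3710 (14.8%) in replicate 2. Of those without one in replicate 1, 54.0% also had none in replicate 2, against 22.3% over all open promoters of the same signal bins. Of those without one in replicate 2, 63.8% had none in replicate 1, against 25.5% at like signal. A footprint in 1 library alone was present in 1874 promoters and footprints in both in 17688. The rule itself combines the libraries, so these shares describe its members and were not tested. The footprinted promoters nearest to the threshold, 851 regions with exactly 1 footprint over both libraries, had median signals of 0.866 in replicate 1 and 0.756 in replicate 2.

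The position of each region relative to the start site was not part of the choice beyond the limit of 1 kb. Unfootprinted promoters lay mostly downstream of the start site. In what follows they are set against footprinted promoters of like signal, meaning that footprinted promoters were weighted so that their numbers over the 20 signal bins matched those of the unfootprinted ones. Of the 20 bins, 12 held unfootprinted regions, which left 11209 footprinted promoters for the comparison. Regions are not replicates, so no p-value over regions is given, and the error is the spread of the 2 libraries, each with its own footprints and signal bins.

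The median midpoint of the unfootprinted regions lay at +416 bp, inside the transcribed side, against +46 bp for footprinted promoters of like signal and -17 bp for all footprinted promoters. In all, 1079 of 1320 (81.7%) had a midpoint downstream. A band of 200 to 800 bp downstream held 894 of them (67.7%), against 32.8% at like signal. That difference was 34.9 percentage points. With the footprints and signal bins of 1 library alone, it was 29.4 in replicate 1 and 30.2 in replicate 2 (29.8 ± 0.591, SD, n = 2). Either way it was larger than this SD, but both values rest on the same regions, so the SD leaves out differences between the peak lists. With the peaks of 1 library alone as well, the difference was 24.1 percentage points in each replicate. A start site lay within 127 of the regions (9.62%), against 36.6% of footprinted promoters of like signal. Midpoints fell in an intron for 63.2% against 39.0%, in a coding exon for 15.5% against 10.7%, in an untranslated exon for 8.86% against 20.6%, and outside transcripts for 12.4% against 29.7%.

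**Figure D2:**
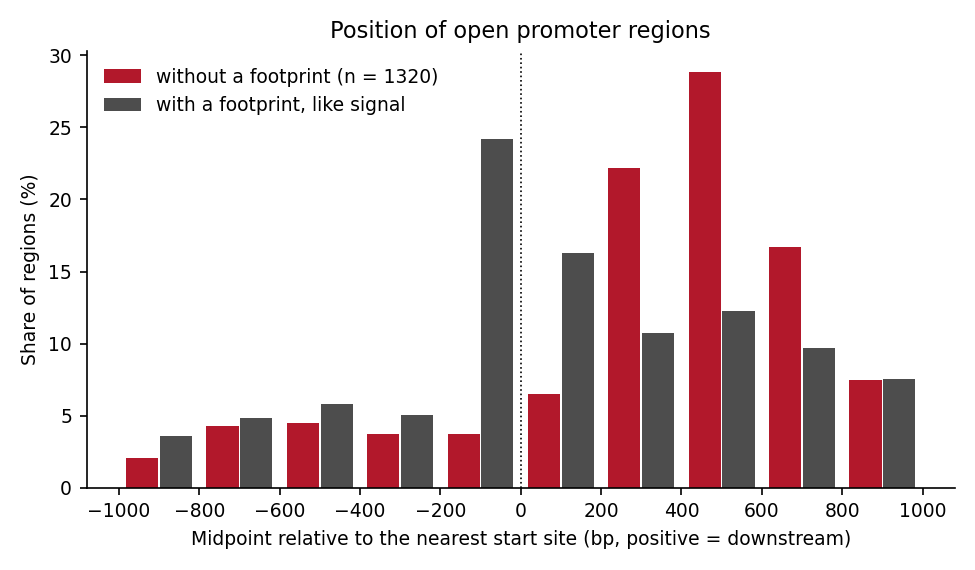
Share of regions (vertical axis, %) by midpoint relative to the nearest start site (horizontal axis, bp, in steps of 200 bp, positive values downstream). Red bars are the 1320 unfootprinted promoters and grey bars are footprinted promoters weighted to like signal; the red bars are highest at 400 to 600 bp downstream (28.9%), and the grey ones in the 200 bp before the start site (24.2%).

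Read the other way, the share of open promoters without a footprint varied with position. It was 0.554% of the 8838 regions centred in the 200 bp upstream of a start site and 20.7% of the 1843 regions centred 400 to 600 bp downstream. In the upstream steps beyond -200 bp it lay between 5.16% (-400 to -200 bp) and 9.11% (-800 to -600 bp). Among promoters of medium signal (bins 5 to 8), the shares were 2.61% just upstream of the start site and 34.8% at 400 to 600 bp downstream, so the order held there. Both libraries showed it, with 1.99% and 1.31% just upstream and 33.6% and 29.4% at 400 to 600 bp.

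Nearly every unfootprinted promoter lay beside a stronger open region that carried footprints. Another shared region lay within 1 kb of 1292 of the 1320 (97.9%), and for 1286 (97.4%) the strongest such neighbour exceeded the region's own signal. Among footprinted promoters of like signal, 56.3% had a stronger neighbour. The difference was 41.1 percentage points, and 23.9 when matched on position as well as signal. With the footprints of 1 library alone and matched on signal, it was 39.6 in replicate 1 and 40.9 in replicate 2 (40.2 ± 0.931, SD, n = 2). The neighbour carried footprints in 1284 cases, but so do most shared regions, of which only 3.43% lacked them. It had a median of 10 footprints over both libraries, against 8 at like signal. It contained a start site in 985 cases, for which no share at like signal is given. Its signal was a median of 9.61 times that of the unfootprinted region, against 3.09 times at like signal, while the gap between the regions had a median of 280 bp, against 320 bp. The nearest footprint of any kind lay a median of 168 bp away (quartiles 102 and 256 bp), and 12 regions had one within 10 bp of their edge.

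By these measures, the label of an open promoter needs a limit. Most of the 1320 regions were flanks on the transcribed side of a stronger, footprinted open region, and 127 contained a start site themselves. For 1187 of the 1270 genes another open promoter region of the same gene was footprinted. The remaining 83 genes had 86 open promoter regions, all unfootprinted, of which 60 had a stronger footprinted neighbour assigned to another gene or lying more than 1 kb from a start site. In 49 genes at least 2 regions were unfootprinted, with at most 3 in 1 gene.

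The share without a footprint was higher beside stronger neighbours. This was examined in the 11988 open promoters whose signal did not exceed that of the strongest unfootprinted one. With no other shared region within 1 kb, 28 of 3170 (0.883%) were unfootprinted, and with a weaker neighbour 6 of 1788 (0.336%). With a neighbour of 1 to 3 times their own signal, 3.13% were, with one of 3 to 10 times 20.5%, and with one of over 10 times 35.4% (620 of 1753). Over all open promoters of the same signal bins, the corresponding shares were 10.7%, 8.31%, 10.1%, 11.6% and 14.5%. Regions centred 200 to 800 bp downstream showed the same order, with 1.91% for no neighbour and 45.3% for a neighbour of over 10 times the signal. Of all 8437 open promoters with a stronger neighbour, 1286 lacked footprints (15.2%).

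**Figure D3:**
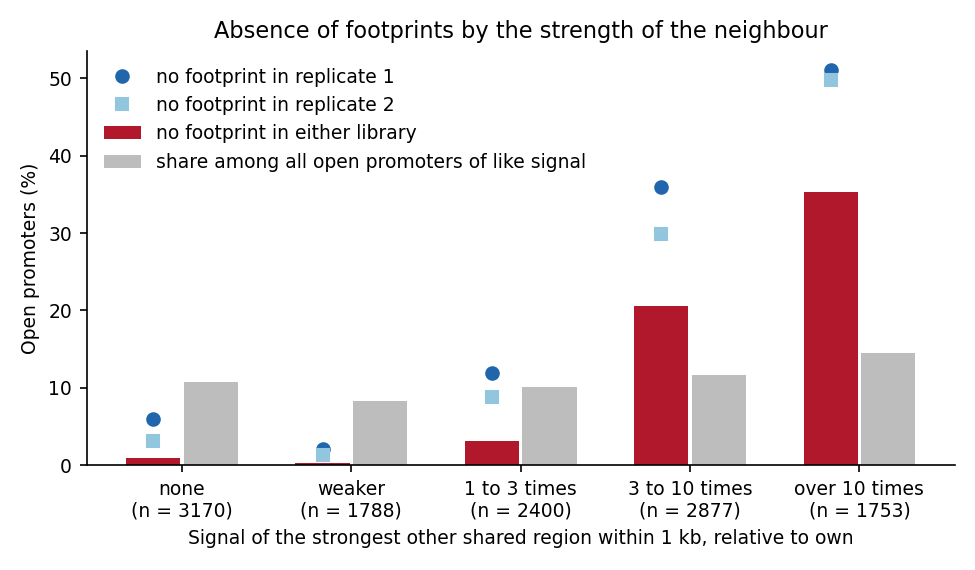
Percentage of open promoters without a footprint (vertical axis) by the signal of the strongest other shared region within 1 kb relative to the region's own (horizontal axis), among the 11988 open promoters no stronger than the strongest unfootprinted one. Red bars are regions without a footprint in either library, grey bars the share over all open promoters of like signal, and points each library alone; the red bars stand below the grey ones up to 1 to 3 times (3.13% and 10.1%) and above them from 3 to 10 times on (20.5% and 11.6%).

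Within each class of position, regions with a stronger neighbour lacked footprints more often than regions without one. Among regions that contained a start site, 10.1% of the 1160 with a stronger neighbour lacked footprints, against 10 of the 3205 without one (0.312%). Downstream regions with a stronger neighbour lacked them in 22.8% of 4301 cases, and those without one in 1.71% of 937. Upstream regions lacked them in 188 of 1569 cases with a stronger neighbour and in 8 of 816 (0.980%) without one. On the upstream side, 192 unfootprinted regions lay more than 200 bp before the nearest start site of their gene. Of these, 48 (25.0%) lay within 1 kb downstream of a start site on the opposite strand, against 14.8% of footprinted upstream regions of like signal. Away from promoters, 54.5% of unfootprinted shared regions had a stronger neighbour, against 19.6% at like signal, with a median ratio of 3.68.

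Unfootprinted promoters were also wider. Their median width was 320 bp (quartiles 260 and 420 bp), against 260 bp for footprinted promoters of like signal and 220 bp for all footprinted ones. With the footprints of 1 library alone, the ratio at like signal was 1.23 in replicate 1 and 1.22 in replicate 2. Wider regions offer more bases in which a footprint can be called. The deposited lists of base positions, each with a false discovery rate (FDR), are separate from the footprints. They covered a median of 100% of bases in both sets and both libraries, so their FDR does not mark footprints. The smallest FDR inside an unfootprinted region had a median of 6.4e-08 in replicate 1 and 1.76e-07 in replicate 2. At like signal it was 3.52e-06 in replicate 1 and 2.44e-06 in replicate 2. A wider region has more bases from which the smallest value is taken, and width was not matched here. Peaks of the stricter lists of both libraries were touched by 82.7% of unfootprinted promoters and by 66.2% of footprinted ones of like signal. A wider region also has more bases with which to touch a stricter peak, and width was not matched for these shares either.

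GC content did not differ between the sets beyond the spread of the libraries. Unfootprinted promoters averaged 61.9% GC and footprinted promoters of like signal 61.9%. With the footprints of 1 library alone, the differences were 0.184 percentage points in replicate 1 and -0.516 in replicate 2. The CpG observed over expected ratio, which is 1 where CpG occurs as often as base composition predicts, averaged 0.676 in unfootprinted promoters and 0.603 in footprinted ones of like signal. With the footprints of 1 library at the shared regions, the difference was 0.0508 in replicate 1 and 0.0504 in replicate 2. With the peaks of 1 library alone as well, it was 0.0382 in replicate 1 and 0.0308 in replicate 2, against 0.0726 with both libraries. Regions with over 55% GC and a ratio over 0.6, the usual limits of a CpG island, made up 58.0% of the unfootprinted and 48.7% of the footprinted set. All footprinted promoters, most of them stronger, averaged 64.3% GC and a ratio of 0.739, so without matching the direction of the CpG difference turned (-0.0635). By signal bin, the median CpG ratio of unfootprinted promoters was below that of footprinted ones in bins 1 and 2 and above it in bins 3 to 9. In bin 6 it was 0.718 against 0.633. Matching on width as well as signal left a CpG difference of 0.0317 and a GC difference of -1.63 percentage points. Bases masked as repeat made up 6.84% of unfootprinted and 7.89% of footprinted promoters of like signal.

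**Figure D4:**
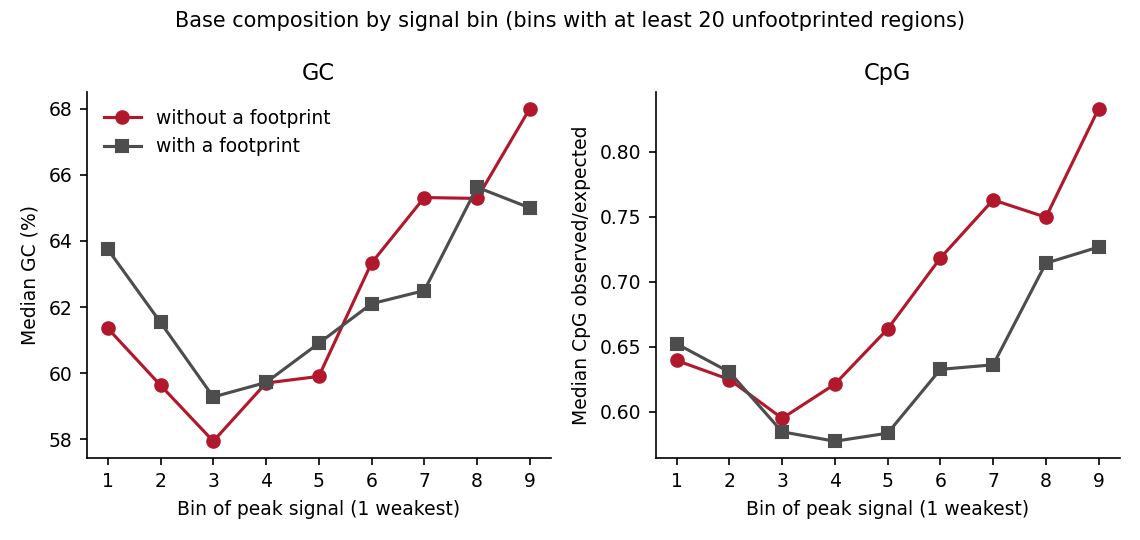
Median GC (left, %) and median CpG observed over expected ratio (right) of unfootprinted (red) and footprinted (grey) promoters in each bin of peak signal with at least 20 unfootprinted regions (horizontal axes, weakest on the left; vertical axes do not start at 0). The GC medians cross, while the CpG ratio is higher in the unfootprinted set in bins 3 to 9, at 0.718 against 0.633 in bin 6.

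Short sequence motifs of promoter factors were less frequent in unfootprinted promoters for several factors and alike for others. Motifs were sought on both strands in the 200 bp around each midpoint, 17 in all, and a match names letters and not a bound protein. The GC box GGGCGG, recognised by SP and KLF factors, was in 34.8% of unfootprinted windows, 42.4% of footprinted ones of like signal, 39.6% of those of like signal and position, and 55.7% of all open promoters. With the footprints of 1 library alone, the difference at like signal was -6.18 percentage points in replicate 1 and -8.48 in replicate 2. CCAAT, the box of NF-Y, was in 13.9% against 17.5% (25.0% of all open promoters), and at like signal and position footprinted windows held it in 14.5%. The cAMP response element TGACGTCA was in 2 of 1320 windows (0.152%), against 0.876% at like signal, 0.366% at like signal and position, and 2.27% of all open promoters. GCGCATGCG, the site of NRF1, was also in 2 (0.152%), against 0.598% at like signal, 0.339% at like signal and position, and 2.42% of all. The CTCF letters AGGGGGCGC were in 0.833% against 1.83% (1.73% with position, 2.23% of all), and the PU.1 letters GAGGAAGT in 1.52% against 2.78% (2.35% with position, 2.07% of all). By contrast CCGGAAG, the core of ETS factors, was in 4.02% and 4.04% (11.4% of all open promoters), and the letters AGATAA, read by blood factors such as Gata1, in 4.24% and 4.58% (3.45% of all). The E-box CACGTG was in 4.39% against 5.59% (7.22% of all). With the footprints of 1 library alone, that difference was only -0.336 percentage points in replicate 1 and -0.182 in replicate 2. The footprinted region of Prcd printed above carries TGACGTCA inside a footprint. None of these motifs contains another, although matches of different motifs can overlap in a window.

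The 12 unfootprinted promoters with the highest signal show the common arrangement. Here and for the gene lists, regions were ranked by the lower of the libraries' signals, each divided by the median of its library. By the geometric mean the order can differ. Where a pair of signals is given for a region, the value of replicate 1 stands before that of replicate 2. Of the 12, 9 had midpoints downstream of the start site, and all 12 had a stronger footprinted region within 1 kb. The footprinted region of Mgea5 printed above had this arrangement too. It lay 791 bp downstream, beside a region of 5.06 times its own signal with 18 footprints. Prcd, the other one printed, had no other shared region within 1 kb. Coro1c lay in an intron 608 bp downstream, and its neighbour, 500 bp away, had a signal of 24.0 in replicate 1 and 23.2 in replicate 2 and 9 footprints. Zfyve21 was centred 245 bp downstream, 200 bp from a region with signals of 16.5 and 14.4 and 16 footprints. In both of these the neighbour was at least 4 times as strong in both libraries. Zcchc7 differed, with its midpoint at -338 bp, signals of 2.95 in replicate 1 and 2.56 in replicate 2, and a neighbour of 6.92 and 5.80, or 2.31 times its own. It lay outside the transcripts of the basic annotation, though within the full span of the gene.

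Among the others was Abcb9, a lysosomal peptide transporter (chromosome 5, 124095261 to 124095540), with signals of 2.66 in replicate 1 and 2.27 in replicate 2 and a neighbour of 28.0 and 31.1. Its CpG ratio, 0.331, was the lowest of the 12. Mettl23, a protein arginine methyltransferase (chromosome 11, 116842781 to 116843060), had 2.45 and 1.97 at -358 bp, beside a region of 14.7 and 12.8. Ostf1, an adaptor protein first described in osteoclasts (chromosome 19, 18631301 to 18631520), had 2.41 in replicate 1 and 1.96 in replicate 2 in an intron at 379 bp. The region of Cul4a, a cullin scaffold of ubiquitin ligases (chromosome 8, 13106201 to 13106500), had 2.71 in replicate 1 and 1.89 in replicate 2 beside a neighbour with 19 footprints. Dop1b (chromosome 16, 93712201 to 93712440) had 2.62 and 1.86, with a neighbour 12.3 times as strong. Hnrnpm, an RNA-binding protein of splicing (chromosome 17, 33684681 to 33684880), had 2.24 and 1.92 at 608 bp and a CpG ratio of 1.06. Gclm, the modifier subunit of the first enzyme of glutathione synthesis (chromosome 3, 122245941 to 122246340), had 2.19 and 1.77 over 400 bp. Gtf2ird2, of the TFII-I family (chromosome 5, 134183901 to 134184100), had 2.16 in replicate 1 and 1.88 in replicate 2 and was the one region of the 12 that contained a start site. In all 12, replicate 1 had the higher value, as it did for the median of all its peaks (0.796 against 0.650).

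**Figure D5:**
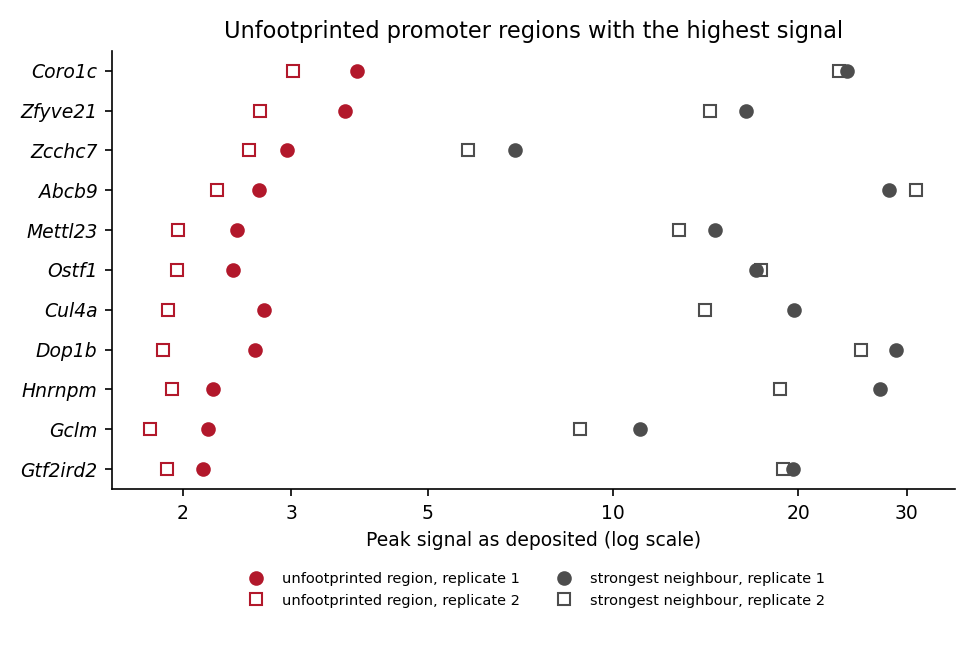
Peak signal as deposited (horizontal axis, log scale) of 11 of the 12 unfootprinted promoter regions with the highest signal (red) and of the strongest other shared region within 1 kb (grey), one gene per line, with filled circles for replicate 1 and open squares for replicate 2. In every line both grey points lie right of both red ones, with the narrowest separation at Zcchc7 (2.95 and 2.56 against 6.92 and 5.80).

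The 5 widest unfootprinted regions lay further into the gene than the median of all unfootprinted regions (+416 bp). Their signals stood on both sides of the medians of all unfootprinted regions, 0.933 in replicate 1 and 0.801 in replicate 2. Padi2, a peptidylarginine deiminase, had a region of 1040 bp (chromosome 4, 140906661 to 140907700) with signals of 0.371 in replicate 1 and 0.388 in replicate 2, centred 836 bp downstream. Phlpp1, a phosphatase that acts on the kinase Akt, had one of 1040 bp (chromosome 1, 106172201 to 106173240) with 1.48 and 0.944, over a coding exon at 968 bp. Cdkn1a, the cyclin-dependent kinase inhibitor p21, had 900 bp (chromosome 17, 29094301 to 29095200) with 0.930 in replicate 1 and 0.928 in replicate 2, and its neighbour was 9.63 times as strong. Zxdc, a zinc finger protein (940 bp), and Mid1ip1, a regulator of fatty acid synthesis on the X chromosome (900 bp), completed the 5. All 5 were centred 662 to 980 bp downstream.

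The CpG ratio of single regions spanned nearly the whole scale. Among unfootprinted promoters above their own median signal, the lowest ratios were 0.0661 at Itga4, the integrin alpha 4 chain (chromosome 2, 79254661 to 79254960), 0.163 at Fyco1, an adaptor of autophagosome transport, and 0.173 at Unk, an RNA-binding protein. Itga4 had signals of 1.06 in replicate 1 and 1.28 in replicate 2 at -690 bp, outside transcripts, beside a region of 14.7 and 16.0. The highest ratios were 1.29 at Ankrd12, 1.25 at Sec14l1 and 1.21 at Ssr1, a subunit of the translocon-associated protein complex. All 3 of these lay in introns, 583, 692 and 343 bp downstream. Low and high ratios alike stood beside neighbours 8.02 to 25.1 times as strong.

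The 28 unfootprinted promoters with no other shared region within 1 kb were mostly weak. Shb, an SH2 domain adaptor, had the strongest (chromosome 4, 45529301 to 45529740), with signals of 1.38 in replicate 1 and 0.956 in replicate 2, in an intron 810 bp downstream. At Src, the tyrosine kinase, the region contained a start site and had signals of 0.543 in replicate 1 and 0.568 in replicate 2. Igfbp5, a binding protein of insulin-like growth factors, had 0.441 and 0.384. The lowest were at Gm9602, Gm3115 and Gm3512 on chromosome 14, at 0.0591 to 0.140 in replicate 1 and 0.123 to 0.159 in replicate 2. Reads of Gm genes in a multicopy cluster may be shared between copies, so these values are uncertain.

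Genes of 26 lists were examined for how many of their open promoter regions lacked footprints. The shares stayed low in every list with over 30 regions and were at most 8.93%, against the 6.32% of all open promoters. Because the share varied with signal, the share of all open promoters at like signal is given beside each. No list was tested, and most hold few unfootprinted regions.

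Most lists of blood and immune cells had few unfootprinted promoters, but this was not particular to them. The neuronal, ion channel and cadherin lists given below had low shares too. The stem and progenitor list and the megakaryocyte and platelet list lay above the 6.32% of all open promoters. The B cell list had 0 among 35 open promoter regions, against 9.33% at like signal and 4.02% at like signal and position. T and natural killer cell genes had 0 of 20 (13.5% at like signal, 7.35% at like signal and position), and endothelial and stromal genes 0 of 15 (10.8% and 8.81%). Among 76 regions of interferon and MHC genes, 1 lacked footprints (1.32%, against 8.33% at like signal). These low counts rest on both libraries. At the shared regions, footprints of replicate 1 were absent from 11.4% of the B cell and 7.89% of the interferon and MHC regions, and those of replicate 2 from 0% and 5.26%. With the peaks and footprints of replicate 1 alone, the shares were 15.0% for B cell genes and 12.1% for interferon and MHC genes, against 17.5% of all promoters open in that library. With replicate 2 alone, they were 11.4% and 13.8%, against 14.8%. Erythroid genes had 3 of 109 (2.75%, against 5.60%). They included Ppox, an enzyme of haem synthesis, with 1.09 in replicate 1 and 0.997 in replicate 2 at 856 bp, and Ldb1, a cofactor that joins LIM domain factors, with 0.715 and 0.597 at 454 bp. Stem and progenitor genes had 3 of 40 (7.50%, against 9.57%), at Mllt3, Hhex and Mecom, transcriptional regulators of blood stem cells. The neutrophil and macrophage list had 1 of 29 (3.45%, against 11.04%) at Slc40a1, the iron exporter ferroportin (0.952 in replicate 1 and 0.883 in replicate 2). The megakaryocyte and platelet list had 1 of 11 (9.09%, against 13.1%) at Itga2b, the platelet integrin chain, with 0.790 and 0.621. Itga2b was 1 of the 6 unfootprinted promoters whose strongest neighbour, at 0.763 in replicate 1 and 0.486 in replicate 2, was weaker than the region itself.

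Most housekeeping lists had shares near or above those at like signal, with 2 to 6 unfootprinted regions each. At like signal and position, the comparison share was 6.68% for aminoacyl-tRNA synthetase, 3.05% for respiratory chain and 3.26% for splicing factor genes. It was 2.16% for mitochondrial and 4.11% for cytosolic ribosomal proteins, 4.27% for proteasome, 5.42% for cell cycle and 8.56% for histone genes. Cytosolic ribosomal, cell cycle and histone genes lay below it. Aminoacyl-tRNA synthetase genes had 5 of 56 (8.93%, against 4.99%), namely Vars, Nars2, Hars2, Vars2 and Mars2, led by Vars with 1.54 in replicate 1 and 1.22 in replicate 2. Genes of the respiratory chain and ATP synthase had 6 of 103 (5.83%, against 2.42%), led by Ndufaf8, a complex I assembly factor, with 2.11 in replicate 1 and 1.63 in replicate 2 beside a region of 13.3 and 14.4. Splicing factors had 5 of 119 (4.20%, against 2.48%), with Hnrnpm first. Mitochondrial ribosomal proteins had 3 of 82 (3.66%, against 1.65%) and cytosolic ones 3 of 116 (2.59%, against 3.12%). Proteasome subunits had 2 of 45 (4.44%, against 3.46%), Psmd11 and Psma5, and cell cycle genes 2 of 51 (3.92%, against 3.85%), Rrm1, a subunit of ribonucleotide reductase, and the proliferation marker Mki67. Mki67 had signals of 1.19 in replicate 1 and 1.12 in replicate 2. Replication-dependent histone genes had 3 of 108 (2.78%, against 6.81%), with Hist1h3a at 2.03 and 1.79. Histone genes are near-identical copies, and their values are uncertain for that reason.

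The 3 families with the most open promoter regions lay within a few percentage points of the share at like signal. Zinc finger genes had 30 of 604 (4.97%, against 6.18%), among them Zbtb37 at 1.68 in replicate 1 and 1.30 in replicate 2. Solute carriers had 27 of 386 (6.99%, against 7.66%), and RING finger and TRIM genes 11 of 215 (5.12%, against 6.06%), led by the chromatin reader Trim24 with 1.72 and 1.09. Homeobox and other developmental factors had 7 of 106 (6.60%, against 11.1%). Of the 7, 6 were forkhead genes and the other was Otx1, but the forkhead share of the 106 regions is not given here. Of these, Foxo3 had 1.15 in replicate 1 and 1.04 in replicate 2. Ion channel subunits had 5 of 126 (3.97%, against 8.76%), G protein-coupled receptors 5 of 101 (4.95%, against 9.11%), collagens, laminins and integrins 3 of 59 (5.08%, against 10.7%), and cadherins and protocadherins 1 of 26 (3.85%, against 11.2%). Neuronal genes had 0 of 13 (13.2% at like signal, 6.22% at like signal and position) and hepatocyte genes 0 of 2 (15.0% and 3.98%).

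By chromosome, the X had the highest share among chromosomes with over 10 open promoters. There, 71 of 633 regions lacked footprints (11.2%), against 7.45% at like signal, and 2 of 10 did on the Y. The other chromosomes ranged between 4.41% and 8.81%. In male mice the X and Y are present in 1 copy and the autosomes in 2. In F1 hybrid males, the X and the Y also come from 1 parent strain each, and the autosomes from both. Copy number and strain origin thus both go with this split, cannot be told apart, and were not tested. The share of unfootprinted promoters that lay on the X exceeded that of footprinted ones of like signal by 2.02 percentage points. With the footprints of 1 library alone, the difference was 0.390 in replicate 1 and 1.61 in replicate 2 (1.00 ± 0.866, SD, n = 2). The mean of the libraries was thus close to the spread between them.

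At the outer limit of the rule, 30 unfootprinted promoters had midpoints more than 950 bp from a start site, with median signals of 0.798 in replicate 1 and 0.691 in replicate 2. In the 50 bp just beyond the limit lay 14 unfootprinted shared regions, with 0.699 and 0.611.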

How the data were processed

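DNase-seq libraries of 2 spleens, labelled as biological replicates of 1 group, were used. The authors deposited, per library, a longer and a stricter peak list with a signal per peak, footprints with an FDR (q-value) of 0.01 in each line, and base positions with an FDR (q-value) under 0.05, all on mm10 per the listing deposited with the samples. The aligner and the peak and footprint callers were not given in the sources used here. Signal has no stated scale and each library its own factor. Depth is unknown, so no counting interval is given. The libraries held 80323 and 88723 peaks and 217159 and 252901 footprints. The signal of a region is the highest of its peaks per library.

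Start sites (41408, 21851 genes) came from the basic GENCODE vM21 set, and bases from GRCm38.p6. Footprinted promoters were weighted to the unfootprinted ones over 20 signal bins, a step tested on simulated data. Members, gene lists and motifs were chosen with earlier results of these data known, and the same holds for the choice of comparisons. Named were the 12 highest by the lower of the libraries' signals (each divided by its library's median), the 5 widest, the 3 lowest and 3 highest in CpG ratio above the median signal, the strongest of each list by the same measure, and footprinted promoters closest in signal to the strongest. A few genes that this rule names are not reported here. The other genes named, those without a neighbour and the weaker ones of each list, were chosen after their values were seen. Python 3.11.15, numpy 2.4.6, pandas 2.3.3, pysam 0.24.0, samtools 1.23.1 and matplotlib 3.10.9 were used.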

Additional observations from a re-analysis of the deposited data

How the results depend on the processing

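No paired analysis was possible because there is 1 group and no test. Read depth is unknown and the signal scale not stated, so an absent footprint cannot be told apart from one below the limit of detection. With 2 libraries, the SD rests on 2 values, and for the CpG difference (0.000285) it is so small that every alternative moved the value beyond it. Neighbour, position, sequence and list comparisons used regions that share libraries.

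Number and share of unfootprinted promoters. Against 1320 and 6.32%, a midpoint within 500 bp gave 720 and 4.36%, footprints counted only where both libraries had one 4736 and 22.7%, and each library alone 3710 to 4410 and 14.8% to 17.5%. With a stronger neighbour required, the share was 15.2%.

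Stricter peak list: CpG difference 0.0554, GC difference -0.578 percentage points, downstream difference 38.8 and stronger-neighbour difference 49.6 percentage points, repeat in the other library 71.4% (58.9% in the main setting, the mean of both directions), signal ratio 0.230, width ratio 1.28. Midpoint within 500 bp: CpG 0.0639, downstream 44.3, stronger neighbour 53.7, signal ratio 0.231. Midpoint within 2500 bp: CpG 0.124, GC 1.60, downstream 38.2, stronger neighbour 43.8, signal ratio 0.401, width ratio 1.33. Reciprocal overlap of 50%: CpG 0.0766, downstream 36.6, stronger neighbour 43.1, signal ratio 0.277, width ratio 1.30. Footprints of both libraries required: CpG 0.0322, downstream 24.1, stronger neighbour 37.5, signal ratio 0.181, width ratio 1.175, and repeat in the other library 99.98%, which the construction of this alternative fixes. Footprints within 50 bp counted: CpG 0.0705. Without X and Y: CpG 0.0734. With 10 or 50 bins: CpG 0.0705 and 0.0734.

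Bins of signal and width: CpG 0.0317, GC -1.63, downstream 30.2, stronger neighbour 36.2. Without matching, the CpG difference turned to -0.0635, with GC -2.44, downstream 46.6, stronger neighbour 60.9 and width ratio 1.45; the cause was not tested. A 1 kb window on the start site gave CpG 0.153 and GC 3.37. Each library alone gave CpG 0.0308 to 0.0382, GC -0.481 to 0.122, downstream 24.08 to 24.12, stronger neighbour 31.9 to 33.0, signal ratio 0.260 to 0.302 and width ratio 1.10 to 1.11. Of the alternatives chosen after seeing the data, the comprehensive annotation gave CpG 0.0840, downstream 30.8 and stronger neighbour 42.3, bins of signal and position CpG 0.0536, stronger neighbour 23.9 and width ratio 1.14, and promoters with a stronger neighbour alone CpG 0.0852, GC 1.28, downstream 22.4 and width ratio 1.19. The downstream and stronger-neighbour differences, themselves added after seeing the data, were positive under every alternative for which they are listed. Matching on position fixes the downstream difference near 0 (-0.0387 percentage points). Requiring a stronger neighbour fixes the stronger-neighbour difference at 0. Of 233 values recomputed for gene lists, 111 stayed within the spread of the libraries and 122 moved beyond it.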
